A study of Mus musculus with 4 samples.

Results

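The genes described here are 10 transcription factors that act downstream of antigen receptor signalling in T cells: the orphan nuclear receptors Nr4a1, Nr4a2 and Nr4a3, the zinc finger factors Egr1, Egr2 and Egr3, the calcium-regulated NFAT factors Nfatc1, Nfatc2 and Nfatc3, and the osmotic stress factor Nfat5. They were chosen by symbol (NR4A1, NR4A2, NR4A3, EGR1, EGR2, EGR3, NFATC1, NFATC2, NFATC3 and NFAT5, as the deposited table spells them), and all 10 were found among the 24452 genes listed. Tregs, or regulatory T cells, which express CD4 and Foxp3 and restrain immune responses, were taken from liver of young mice, of which there were 2 genotypes. Altre-WT mice served as wild-type controls, and Altre-KO mice lack Altre, a long non-coding RNA, by the label's name. There were 2 RNA-sequencing libraries per genotype and 4 in all. Age in weeks, strain, sex, any treatment, the design of the knockout allele and the number of mice behind a library are not stated in the labels, so the p-values measure only the spread between these libraries, which may be technical. The Altre transcript was not analysed here, and genotypes were taken from the labels.

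When the T cell receptor is engaged, calcium enters the cell and activates the phosphatase calcineurin, which strips phosphates from Nfatc1, Nfatc2 and Nfatc3 and lets them enter the nucleus. The same stimulus activates the Ras and ERK kinases, and through SRF, its partner factors and CREB it switches on Egr and Nr4a genes within a short time, so these are immediate early genes whose transcripts are often read as a record of recent receptor signalling. In Tregs, NFAT proteins partner with Foxp3, Nr4a factors help to maintain Foxp3 and the lineage, and Egr2 and Egr3 restrain T cell activation and are linked to tolerance. Nfat5 shares the NFAT DNA-binding domain but lacks the calcineurin-regulated part and responds to hypertonic stress.

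Promoter sequences are shown for the members whose windows held the short core of the CREB site or the SRF motif. RefSeq promoter windows (GRCm38.p6) were matched for 7 of the 10 members. Those of Egr1, Egr3 and Nfatc1 were not analysed here. In the 250 bases before the most downstream listed start of each gene, the short core of the cAMP response element (CRE), the CREB site, was searched as CGTCA or TGACG, which are the same motif on the 2 strands. It occurred 4 times in Nr4a1, 4 times in Nr4a2 and 4 times in Nr4a3. Of all 27025 gene windows of this length, 17.5% held it at least once and 0.144% held it 4 times or more. These windows were rich in G and C (74.4% in Nr4a1, 80.0% in Nr4a2 and 63.6% in Nr4a3, against a median of 52.0% over all windows), and among the 7393 windows with at least 60% G and C, 0.406% held the motif 4 times or more. Egr2 held it 2 times, together with 1 CArG box, the 10-base SRF site, which 1.38% of all windows held. Of the 5 listed Egr2 starts, 3 gave these counts, but their windows largely overlap. Another start gave 0 CRE cores and 1 CArG box, which lies outside the stretch printed below. The remaining start gave 0 of both. The windows of Nfatc2, Nfatc3 and Nfat5 held no CRE core and no CArG box, although the other listed Nfatc3 start held 1 CRE core. Such a match is a description of letters and shows neither binding nor use. Below, capitals mark the CRE core and, in Egr2, the CArG box. Bases that GENCODE M21 counts as exon are left off, which removes the last of the 4 matches in Nr4a3. The stretches are chr15:101266596-101266845 on the + strand, chr2:57124004-57124253 on the - strand, chr4:48045055-48045152 on the + strand and chr10:67537680-67537868 on the + strand.
Nr4a1: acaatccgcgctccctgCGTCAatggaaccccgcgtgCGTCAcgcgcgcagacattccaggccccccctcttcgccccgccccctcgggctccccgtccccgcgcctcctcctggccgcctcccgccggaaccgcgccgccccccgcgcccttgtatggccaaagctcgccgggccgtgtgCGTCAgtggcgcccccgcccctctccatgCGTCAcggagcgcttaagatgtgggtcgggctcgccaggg
Nr4a2: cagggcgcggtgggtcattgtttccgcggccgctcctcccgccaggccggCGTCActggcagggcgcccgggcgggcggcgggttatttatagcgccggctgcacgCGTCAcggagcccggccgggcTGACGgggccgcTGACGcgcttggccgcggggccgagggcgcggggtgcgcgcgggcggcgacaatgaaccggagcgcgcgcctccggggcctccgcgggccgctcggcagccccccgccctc
Nr4a3: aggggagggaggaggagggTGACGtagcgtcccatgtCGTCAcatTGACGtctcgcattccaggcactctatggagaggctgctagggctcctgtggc
Egr2: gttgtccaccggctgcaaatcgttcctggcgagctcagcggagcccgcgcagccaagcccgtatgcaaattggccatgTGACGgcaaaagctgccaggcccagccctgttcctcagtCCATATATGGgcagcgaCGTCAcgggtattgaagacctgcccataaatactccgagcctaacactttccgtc

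Gene levels are given in CPM, in which the reads of each library on listed genes are scaled to the same total. The libraries held an estimated 1828770 to 3266130 reads on listed genes, so that 1 read was worth between 0.306 and 0.547 CPM. Replicate 1 of Altre-KO stood apart: 32.8% of its reads fell on listed genes, where the other 3 libraries had 18.8% to 21.5%, and it had the fewest genes above 0 (14970, against 15818 to 16668). The cells carried their defining markers, with Cd4 at 527 to 547 CPM and the Helios gene Ikzf2 at 1226 to 1272 CPM, and Foxp3 at 160.4 and 140.4 CPM in the Altre-WT libraries against 79.5 and 162 CPM in the Altre-KO libraries. Of the 12 Treg markers 11 were listed, and they summed to 4222 to 4439 CPM. The 2 CD8 T cell markers summed to 5.08 to 9.25 CPM, with Cd8b1 at 4.66 to 8.83 CPM and Cd8a at or below 0.42 CPM. The 12 myeloid and Kupffer cell markers summed to 222 and 325 CPM in the Altre-WT libraries and to 330 and 195 CPM in the Altre-KO libraries, led by Lyz2 (66.05 to 165 CPM), while Marco was at 0 in every library and the Kupffer cell gene Clec4f in 3 of 4. Sums were 34.7 to 40.5 CPM for 7 B cell markers, 11.85 to 21.3 CPM for 5 NK and ILC1 markers, 30.1 to 47.1 CPM for 8 hepatocyte markers, most of it Trf with Alb at 0, and 175 to 225 CPM for 9 endothelial and stellate markers, most of it Pecam1. Myeloid cells also use Nr4a and Egr genes, and the part of these transcripts in the values below was not tested.

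None of the 10 members passed the test between genotypes, by limma on log2(CPM + 1) with Benjamini-Hochberg adjustment over 10486 tested genes. All 10 had a limma adjusted p of 0.999. The share of tested genes that passed was 0.0381%, 4 genes, all of them lower in knockout. With 1 library left out, the genotype with a lone library is assumed to vary like the other. Then 2 genes higher and 4 lower in knockout passed without wild-type replicate 1, and 11 higher and 5 lower without wild-type replicate 2. Without knockout replicate 1 there were 2 higher and 4 lower, and without knockout replicate 2 there were 0 higher and 14 lower. No member was among them. With RPM scaling, 2 higher and 4 lower genes passed. At an unadjusted limma p under 0.05 there were 2 members, Nfatc2 and Nfatc3, both lower in knockout, where 3.66% of all tested genes had such a p and 2.22% were lower with it. Without knockout replicate 2 that count was 4 members, beside 812 of all tested genes, and without wild-type replicate 2 it was 1 member beside 502 genes. It was 0 members beside 371 genes without knockout replicate 1 and 0 beside 307 without wild-type replicate 1. With all libraries 384 genes had such a p. Log2 fold changes, given throughout for log2(CPM + 1) and below 0 where knockout was lower, had a median of -0.20 over the 10 members and of -0.01 over all tested genes. They were below 0 for 7 of the 10 members and for 52.1% of all tested genes. All 10 members met the low-value filter of 4.22 CPM in at least 2 libraries, but Nr4a2 met it through the wild-type libraries alone. In the authors' deposited table all 10 members had an adjusted p of 1, and the lowest p among them was 0.136, for Nfatc3.

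**Figure D1:**
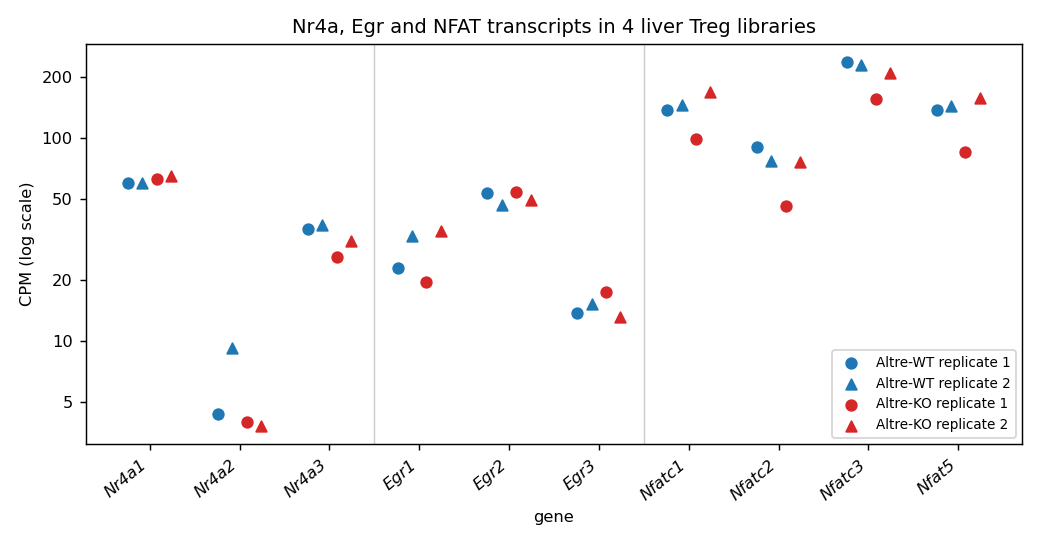
CPM (vertical, log scale) of the 10 genes (horizontal) in each library: blue for Altre-WT, red for Altre-KO, circles for replicate 1 and triangles for replicate 2, 1 point per library. The 4 NFAT genes are lowest in the red circle, replicate 1 of Altre-KO, while Nr4a1 and Egr2 lie close together in all 4 libraries.

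Per kilobase of annotated exon, 4 members lay above the other 6 in every library. Nfatc1 (18.4 ± 3.82 CPM per kb, SD over all 4 libraries), Nfatc3 (17.6 ± 3.05), Nr4a1 (17.6 ± 0.678) and Egr2 (15.0 ± 1.02) were the high ones. The ranges of Nfatc1, Nfatc3 and Nr4a1 overlapped, while Egr2 was below Nr4a1 in each of the 4 libraries and overlapped with both NFAT genes. Nfat5 (7.11 ± 1.71), Nfatc2 (6.83 ± 1.74), Egr1 (6.14 ± 1.64) and Nr4a3 (5.42 ± 0.851) followed and likewise overlapped. Egr3 was at 3.37 ± 0.438 CPM per kb and Nr4a2 lowest at 1.32 ± 0.643, and neither range overlapped with that of its neighbour above. Which transcripts the cells use is not known here. With the longest annotated transcript in place of all exons, Nfatc3 led with 34.6 CPM per kb before Nfatc1 (28.6) and Nr4a1 (24.2). The remaining family members were low. Egr4, the fourth Egr gene, measured 1.64 and 3.78 CPM in the Altre-WT libraries against 1.22 and 1.27 CPM in the Altre-KO libraries, and Nfatc4, the fourth calcium-regulated NFAT gene, measured 1.09 and 2.10 against 0 and 0.42 CPM. Both were below the filter and were not tested.

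Among the Nr4a genes, Nr4a1, whose protein Nur77 is widely used as a reporter of receptor signalling, varied least. It measured 60.15 and 59.7 CPM in the Altre-WT libraries against 62.8 and 64.8 CPM in the Altre-KO libraries, on 110 to 205 reads per library. The 2 knockout libraries thus lay just above the 2 wild-type libraries (log2 fold change 0.09, SE 0.21, 95% interval -0.35 to 0.53, limma adjusted p = 0.999). The test does not show that the genotypes were equal, since that interval spans changes in both directions. Nr4a3, a close relative that also maintains the Treg lineage, measured 35.5 and 37.4 CPM in the Altre-WT libraries against 26.02 and 30.9 CPM in the Altre-KO libraries. Both knockout values lay below both wild-type values, with a log2 fold change of -0.35 (SE 0.27, 95% interval -0.92 to 0.21, limma adjusted p = 0.999). Nr4a2, the least abundant of the 3, measured 4.37 and 9.25 CPM in the Altre-WT libraries against 3.98 and 3.81 CPM in the Altre-KO libraries. Only the wild-type replicate 2 library stood out, and it rested on 22 reads (exact 95% Poisson interval 5.80 to 14.0 CPM), against 8 to 13 reads in the others. Without that library the log2 fold change of Nr4a2 was -0.13 in place of -0.60.

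The balance between Nr4a3 and Nr4a1 inside a library does not depend on how libraries are scaled. Nr4a3 has 5.99 kb of annotated exon and Nr4a1 3.51 kb, and values of knockout replicate 1 moved with length, as described below. The part of length in these shares was not tested. Nr4a3 made up 37.1% (95% Wilson interval 30.3 to 44.5) and 38.5% (32.5 to 44.9) of the reads on the 2 genes in wild type. In knockout it made up 29.3% (24.4 to 34.8) and 32.3% (26.5 to 38.6). The knockout shares were lower by 7.03 percentage points on average and did not overlap with wild type, but all 4 intervals, which cover counting error only, overlapped. With 2 libraries against 2, an exact 2-sided permutation test cannot go below 0.333, which is the p obtained, and it was 0.933 after adjustment over the 7 within-family pairs compared. These 7 pairs were chosen after the values were seen. The groups also did not overlap for Nr4a2 relative to Nr4a1 (6.78% and 13.4% against 5.96% and 5.56%), with the same permutation p of 0.333. In wild-type replicate 1 this share rested on 8 Nr4a2 reads, and its 95% Wilson interval (3.48 to 12.8) covered both knockout shares. Nr4a2 also met the low-value filter through the wild-type libraries alone, which favours a lower knockout value. The groups overlapped for the other 5 pairs.

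The Egr genes did not separate by genotype. Egr2, which with Egr3 limits T cell activation, measured 53.6 and 46.7 CPM in the Altre-WT libraries against 53.9 and 49.5 CPM in the Altre-KO libraries (log2 fold change 0.05, 95% interval -0.43 to 0.52, limma adjusted p = 0.999). Egr3 measured 13.7 and 15.1 CPM in the Altre-WT libraries against 17.45 and 13.1 CPM in the Altre-KO libraries. The highest and the lowest Egr3 value both came from knockout libraries, and the log2 fold change was 0.07. Egr1, the family member most used as a marker of ERK signalling, measured 23.0 and 32.8 CPM in the Altre-WT libraries against 19.6 and 34.7 CPM in the Altre-KO libraries. Egr1 was low in replicate 1 and high in replicate 2 of both genotypes, so that the spread within a genotype (SD 6.94 CPM over the Altre-WT and 10.7 CPM over the Altre-KO libraries) far exceeded the difference of the means (27.9 and 27.2 CPM). Its share of the reads on Egr1 and Egr2 followed the same split, at 30.0% and 41.3% in wild type and 26.7% and 41.2% in knockout. The sign of the Egr1 difference depended on which libraries were used: its log2 fold change was 0.18 once wild-type replicate 2 was left out, 0.33 once knockout replicate 1 was, and -0.47 once knockout replicate 2 was. The labels give no batch that would tie equal replicate numbers together.

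In CPM all 4 NFAT genes had lower means in knockout, and in all 4 the lowest value came from replicate 1 of Altre-KO. Nfatc3, the most abundant NFAT transcript by reads, measured 236 and 227 CPM in the Altre-WT libraries against 156 and 209 CPM in the Altre-KO libraries. Both knockout values were below wild type (log2 fold change -0.36, SE 0.17, 95% interval -0.71 to -0.01, limma adjusted p = 0.999). Nfatc2, the NFAT factor whose complex with Foxp3 is best known, measured 89.7 and 77.3 CPM in the Altre-WT libraries against 46.2 and 75.8 CPM in the Altre-KO libraries. Here knockout replicate 2 lay just under the lower wild-type value, and replicate 1 far under it (log2 fold change -0.48, SE 0.23, 95% interval -0.96 to -0.01, limma adjusted p = 0.999). Nfatc1, which is induced by receptor signalling through its own NFAT-driven promoter, measured 137 and 145 CPM in the Altre-WT libraries against 98.9 and 167 CPM in the Altre-KO libraries, so the knockout libraries lay on both sides of wild type. Nfat5 showed the same arrangement, at 136.7 and 143 CPM in the Altre-WT libraries against 85.4 and 157.5 CPM in the Altre-KO libraries.

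Without knockout replicate 1, the log2 fold changes were -0.15 for Nfatc3, -0.13 for Nfatc2, 0.24 for Nfatc1 and 0.17 for Nfat5. Without knockout replicate 2 they were -0.57, -0.84, -0.51 and -0.71 in the same order. The sign of the difference for Nfatc1 and Nfat5, and most of its size for Nfatc2 and Nfatc3, therefore rested on 1 library. With the deposited RPM values, which are scaled to all reads of a library, the median of all tested genes moved to 0.41. Relative to that median the differences were -0.34 for Nfatc3, -0.47 for Nfatc2, -0.11 for Nfatc1 and -0.25 for Nfat5, while the RPM differences themselves were 0.07, -0.06, 0.30 and 0.16. For Nr4a3 the RPM difference was likewise 0.07, or -0.34 relative to that median.

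**Figure D2:**
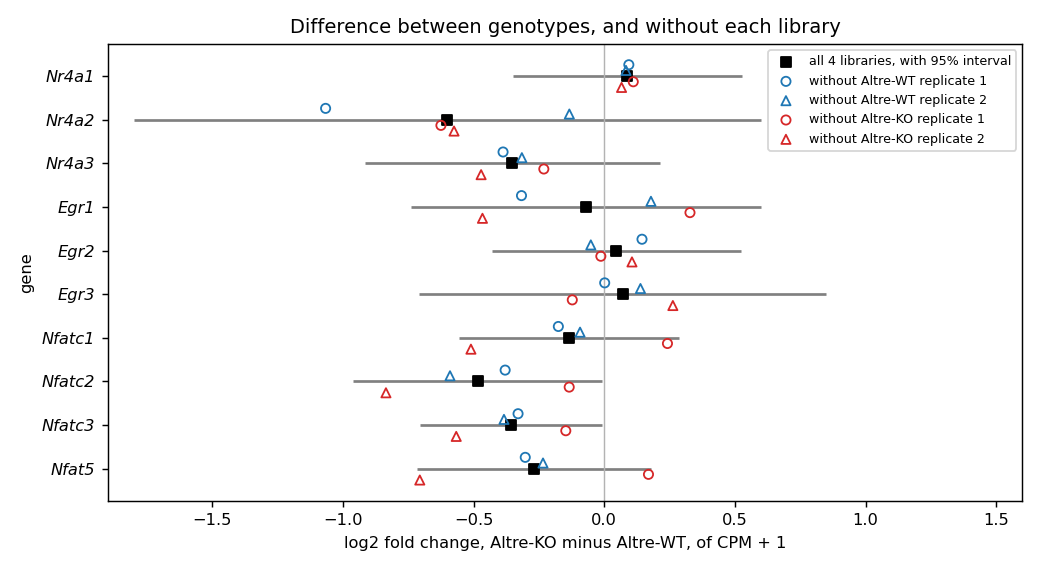
Log2 fold change of CPM + 1, Altre-KO minus Altre-WT (horizontal), for the 10 genes: black squares and grey bars give the value and 95% interval from all 4 libraries, and open symbols the value without 1 named library. The open red circles, without replicate 1 of Altre-KO, lie above 0 for Nfatc1 (0.24) and Nfat5 (0.17), and all bars but those of Nfatc2 and Nfatc3 cross 0.

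Genotypes did not overlap for 5 of the 10 members: Nr4a1 higher, and Nr4a2, Nr4a3, Nfatc2 and Nfatc3 lower in knockout. Of these, Nr4a2 met the low-value filter through the wild-type libraries alone, which favours its place among the lower ones. Over all tested genes 30.8% did not overlap, 14.7% higher and 16.1% lower in knockout. Knockout replicate 1 was the lowest of the 4 libraries for 6 members (Nr4a3, Egr1 and the 4 NFAT genes), where it was the lowest for 25.7% of all tested genes.

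Transcript length moved with the values of that library. Among tested genes with a mean of at least 20 CPM, the median of knockout replicate 1 minus the mean of the other 3 libraries, in log2(CPM + 1), was 0.28 for the 126 genes with up to 1 kb of annotated exon and 0.05 for the 1791 genes of 4 to 6 kb. It was -0.07 for the 1045 genes of 8 to 12 kb and -0.19 for the 474 genes above 12 kb. The NFAT genes are long, with 7.47 kb of exon in Nfatc1, 10.6 kb in Nfatc2, 11.7 kb in Nfatc3 and 18.4 kb in Nfat5, against 3.40 to 5.99 kb in the Nr4a and Egr genes. Their differences in this library were -0.59, -0.79, -0.52 and -0.76, all below the lower quartile of genes of like length (-0.24 for 6 to 8 kb, -0.28 for 8 to 12 kb and -0.39 above 12 kb). The median of 6 to 8 kb genes was -0.03. After the medians of each length bin were taken out of every library (a setting added once the data had been seen), the genotype differences were -0.30 for Nfatc3, -0.42 for Nfatc2, -0.10 for Nfatc1 and -0.17 for Nfat5. The part that the other differences of this library (its share of reads on listed genes and its number of genes above 0) had in these values was not tested. In bulk libraries, fewer cells with a transcript and less of it per cell cannot be told apart.

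**Figure D3:**
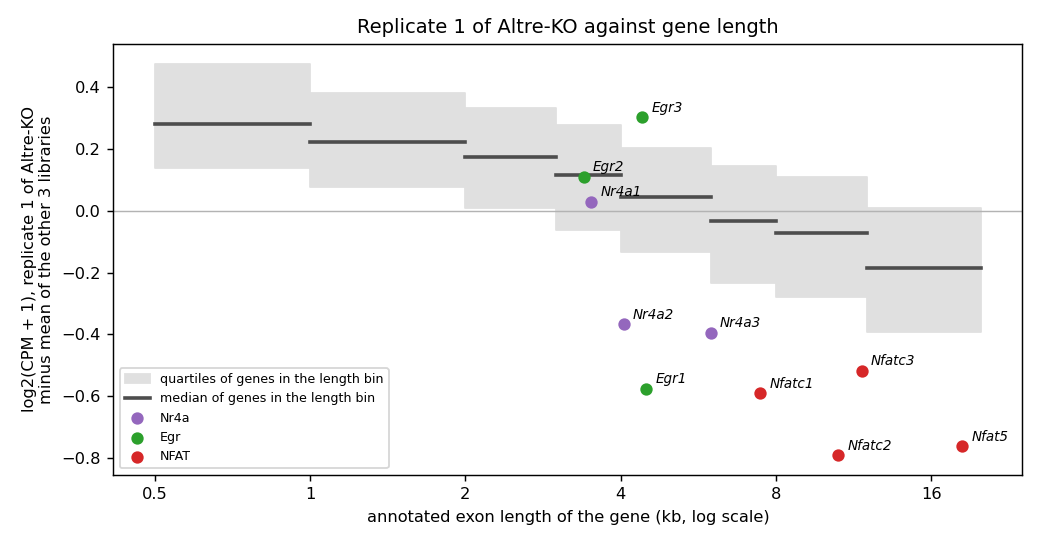
Log2(CPM + 1) in replicate 1 of Altre-KO minus the mean of the other 3 libraries (vertical) against annotated exon length (horizontal, log scale): grey bands and dark lines give the quartiles and medians of tested genes with a mean of at least 20 CPM in each length bin, of which the first has no lower and the last no upper limit, and points the 10 genes. The medians run from 0.28 for the shortest to -0.19 for the longest genes, and the NFAT genes lie lower still, from -0.52 to -0.79.

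None of the measured genes upstream of NFAT passed the test. Of 16 genes for calcium entry and calcineurin, all 16 were tested and 0 passed by limma, with 0 at an unadjusted p under 0.05 and a median log2 fold change of -0.02. The calcium sensor gene Stim1 measured 102.8 and 84.9 CPM in the Altre-WT libraries against 79.6 and 85.1 CPM in the Altre-KO libraries. Orai1, the pore of the channel it opens, had a log2 fold change of -0.10 and the calcineurin subunit gene Ppp3ca -0.17. Among 19 NFAT inhibitors and export kinases 15 were tested and 0 passed by limma, with 1 at an unadjusted p under 0.05 and a median of -0.06. That 1 gene, named after its value was seen, was the casein kinase gene Csnk1e (log2 fold change -0.76). Rcan1, a calcineurin inhibitor that NFAT itself induces, measured 14.8 and 10.9 CPM in the Altre-WT libraries against 18.1 and 8.89 CPM in the Altre-KO libraries, so its knockout values lay on both sides of wild type. Rcan3 had a log2 fold change of 0.15 and the calcineurin inhibitor gene Cabin1 -0.26.

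The route from Ras and ERK to Egr and Nr4a promoters had 23 of 23 genes tested and 0 past the threshold by limma, with 0 at an unadjusted p under 0.05 and a median of -0.03. Rasgrp1, the Ras activator of T cells, measured 363 and 393 CPM in the Altre-WT libraries against 334 and 367 CPM in the Altre-KO libraries, and the kinase gene Map2k1 had a log2 fold change of 0.06. Of 11 relatives and co-repressors 7 were tested and 0 passed by limma, with 2 at an unadjusted p under 0.05. The nuclear co-repressor gene Ncor1 (-0.34), named after its value was seen, was among them. Nab2, an Egr target whose protein blocks Egr factors, measured 73.3 and 68.1 CPM in the Altre-WT libraries against 76.2 and 86.8 CPM in the Altre-KO libraries (log2 fold change 0.20, limma adjusted p = 0.999), and its relative Nab1 had a log2 fold change of 0.08.

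The other immediate early genes went in both directions. Of 24 such genes 21 were tested, 11 lower and 10 higher in knockout, 0 passed by limma and 4 had an unadjusted p under 0.05, with a median of -0.01. The AP-1 genes Fos and Fosb were lower in both knockout libraries. Fos measured 306 and 401 CPM in the Altre-WT libraries against 170.2 and 249 CPM in the Altre-KO libraries (log2 fold change -0.76 with an SE of 0.18, limma adjusted p = 0.683). Its log2 fold change was -0.49 without knockout replicate 1 (limma adjusted p = 0.997). It was -1.04 without knockout replicate 2 (limma adjusted p = 0.0415), a fit in which the 1 knockout library is the one that stood apart and the spread comes from the wild-type libraries and the trend over genes. Fosb was at 113 and 129 against 72.3 and 78.3 CPM (log2 fold change -0.67). Jun had a log2 fold change of -0.24. The other 2 with an unadjusted p under 0.05 were Klf6 (-0.38) and, named after its value was seen, the ERK phosphatase gene Dusp2 (0.44). Nr4a1, Egr1, Egr2 and Egr3, which the same stimuli induce, lay between -0.07 and 0.09 on this scale. Their relatives Nr4a2 (-0.60) and Nr4a3 (-0.35) lay lower, on the side of Fos and Fosb. The difference between Fos and the Nr4a and Egr genes was not tested.

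**Figure D4:**
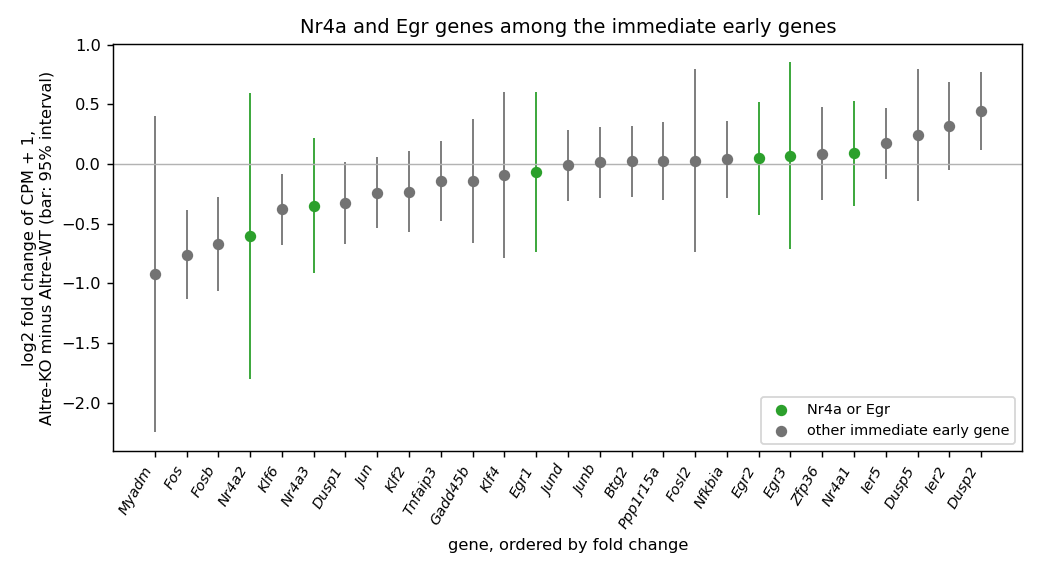
Log2 fold change of CPM + 1, Altre-KO minus Altre-WT (vertical, bars give 95% intervals), for the 6 Nr4a and Egr genes in green and 21 other tested immediate early genes in grey, ordered by value. Fos (-0.76) and Fosb (-0.67) lie near the low end and Dusp2 (0.44) at the high end. Nr4a1 and the 3 Egr genes lie near 0, and Nr4a2 (-0.60) and Nr4a3 (-0.35) below it.

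Genes that act downstream were described from lists chosen by function. Of 16 tolerance and anergy genes, among them targets of Egr2 and Egr3, 15 were tested and 0 passed by limma, with 0 at an unadjusted p under 0.05 and a median of -0.05. The diacylglycerol kinase genes Dgka and Dgkz, brakes on Ras signalling, had log2 fold changes of -0.05 and -0.05, and the ubiquitin ligase gene Cblb -0.08. Of 20 T cell activation genes, many of them bound by NFAT, 16 were tested, 14 lower and 2 higher in knockout, with a median of -0.25, where 52.1% of all tested genes were lower. None of these passed by limma and 1 had an unadjusted p under 0.05, the chemokine receptor gene Ccr8 (-0.84), named after its value was seen. Cd40lg measured 7.11 and 9.67 CPM in the Altre-WT libraries against 4.29 and 9.31 CPM in the Altre-KO libraries, Il2ra had a log2 fold change of -0.09 and Ctla4 -0.12. Foxp3, the partner of NFAT in Tregs, had a log2 fold change of -0.40 and was, like the 4 NFAT genes, lowest in knockout replicate 1. It was at 0.11 without that library.

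Of 15 osmotic response genes of Nfat5, 13 were tested, 5 lower and 8 higher in knockout, with a median of 0.06. The taurine transporter gene Slc6a6 measured 118 and 124 CPM in the Altre-WT libraries against 99.8 and 123 CPM in the Altre-KO libraries, and the myo-inositol transporter gene Slc5a3 had a log2 fold change of -0.01. Akr1b3, aldose reductase, measured 5.84 and 25.2 CPM in the Altre-WT libraries against 4.46 and 4.10 CPM in the Altre-KO libraries, so its difference came from wild-type replicate 2, and it did not pass (limma adjusted p = 0.999). The inducible chaperone gene Hspa1b, which heat shock also induces, was the 1 listed gene that passed. It measured 309.1 and 702 CPM in the Altre-WT libraries against 81.1 and 87.4 CPM in the Altre-KO libraries (log2 fold change -2.45, limma adjusted p = 4.26e-06), but did not pass with robust variance moderation (0.999). It shares reads with its near-identical copy, so its value alone is uncertain. Nfat5 itself was high in knockout replicate 2 (157.5 CPM) and low in replicate 1 (85.4 CPM), while Hspa1b was low in both. A relation between Nfat5 and Hspa1b was not tested.

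By profile over the 4 libraries, the member with the widest range was Nr4a2 (1.09 on the log2(CPM + 1) scale). Among tested genes with a mean of at least 20 CPM, the 5 nearest to it by Euclidean distance between centred log2(CPM + 1) profiles were Prkag2 (0.20), Ttc21b (0.25), Ids (0.29), Lamp2 (0.29) and Plekho1 (0.30). Like Nr4a2, all 5 were highest in wild-type replicate 2, with Lamp2 at 58.0 and 91.6 CPM in the Altre-WT libraries against 54.5 and 55.9 CPM in the Altre-KO libraries. Over 4 libraries such likeness is a description and carries no test.

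In GRCm38 with the GENCODE M21 annotation, the Nr4a genes lie on 3 chromosomes, Nr4a1 at chr15:101254269-101274795, Nr4a2 at chr2:57106830-57124003 and Nr4a3 at chr4:48045153-48086447. Egr1 lies at chr18:34859823-34864984, Egr2 at chr10:67535475-67542188 and Egr3 at chr14:70077203-70082614. Nfatc1 lies at chr18:80606205-80713071, Nfatc2 at chr2:168476410-168601657, Nfatc3 at chr8:106058840-106130537 and Nfat5 at chr8:107293470-107379517, and all 10 are protein-coding. Nfatc3 overlaps Esrp2 on the opposite strand, which was at 1.27 to 4.59 CPM, and the other 2 annotated genes that overlap members, in Nfatc1 and Nfatc3, were not listed. The estimated reads of all 10 members were whole numbers. Those of Foxp3, Akr1b3 and Hspa1b were fractional in every library, and how far Foxp3 and Akr1b3 share reads with other genes was not tested.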

How the data were processed

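RNA was purified on RNeasy Micro columns and turned into sequencing libraries with the SMARTER mRNA-seq kit, per the labels' protocols. The submitters' processing notes name STAR, cutadapt, DESeq2 and mm10. No source used here gives their roles or versions, the read counter or the annotation.

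The deposited table covers 24452 genes by symbol. Its CPM columns were scaled by the authors to a common sum over listed genes, per the file headers and values. A second set of deposited columns holds RPM with 0.0001 added, as read from the values. The authors' deposited table also gives mean CPM, the log2 ratio and, from an unnamed test, p-values before and after adjustment.

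What 1 read is worth was taken from the commonest RPM value and its whole multiples. Between 93.0% and 93.8% of values above 0 were whole within 0.02 of a read, so reads are called estimated, and library totals came to 9710060 to 11570130 reads. Symbols were matched to GENCODE M21 by name. limma 3.58.1 (R 4.3.3), with a variance trend, was fitted to log2(CPM + 1) of the 10486 genes reaching 10 estimated reads at the median depth (4.22 CPM) in at least 2 libraries, with genotype as the only term and a threshold of 0.05 on the Benjamini-Hochberg adjusted p. With 20.8 prior degrees of freedom, SEs and intervals rest mostly on the spread shared by all genes. A log2 fold change on this scale understates the change of low genes.

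The members and lists were chosen with earlier results of these data known. Named genes are the 10 members, a panel of 58 picked by role, and the 5 genes nearest in profile to the member with the widest range. To keep the text short, part of the panel is printed (the first 3 of each list, Nfatc4, Foxp3 and any past the threshold, apart from items not reported here), a choice made after the data were seen, besides Klf6 and the marker Ikzf2. Others are marked as named after their values were seen. Alternatives are listed in the closing section. Figures were drawn with matplotlib 3.10.9.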

Additional observations from a re-analysis of the deposited data

How the results depend on the processing

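No member passed under limma-voom on estimated reads, RPM scaling, median-of-ratios or upper-quartile scaling, no filter, a mean of at least 20 CPM, a pseudocount of 0.1 or 4, the replicate block, robust moderation, each library left out, or, chosen after the data were seen, removal of length-bin medians or of ribosomal protein genes. With a mean of at least 20 CPM, Nr4a2 and Egr3 were not tested. Genes past the threshold numbered 4, against 2 with a pseudocount of 0.1, 1 with robust moderation and 6 to 16 without each library in turn (16 without wild-type replicate 2, 14 without knockout replicate 2). The correlation of deviations between libraries of equal replicate number was -0.01 over genes. It cannot decide whether these libraries share a batch, since knockout replicate 1 also differed by transcript length and share of reads on listed genes. With the replicate block 6 genes passed and 0 members, and Fos passed (adjusted p = 0.0346). RPM scaling, which moved the median of all genes to 0.41, turned these log2 fold changes: Nr4a3 0.069, Egr1 0.35, Nfatc1 0.30, Nfatc3 0.074, Nfat5 0.16, Stim1 0.25, Orai1 0.33, Ppp3ca 0.26, Cabin1 0.17, Rasgrp1 0.32, Cblb 0.35, Dgka 0.39, Dgkz 0.39, Cd40lg 0.036, Il2ra 0.34, Ctla4 0.32, Foxp3 0.033, Slc6a6 0.31, Slc5a3 0.42, Jun 0.19. Other reversals were Rcan1 with a pseudocount of 0.1 (-0.0029) or length bins (-0.018), and Slc5a3 with median-of-ratios (0.019), upper-quartile (0.0061) or length bins (0.050). With 1 knockout library left, Fos had an adjusted p of 0.0415 without knockout replicate 2 and of 0.997 without replicate 1 (log2 fold change -1.04 and -0.49). Hspa1b (-2.45) lost its call with robust moderation. Ranges over the 4 libraries left out in turn, where the sign turned, were Egr1 -0.47 to 0.33, Egr2 -0.052 to 0.14, Egr3 -0.12 to 0.26, Nfatc1 -0.51 to 0.24, Nfat5 -0.71 to 0.17, Orai1 -0.20 to 0.0019, Rcan1 -0.47 to 0.48, Map2k1 -0.031 to 0.16, Nab1 -0.034 to 0.19, Cblb -0.37 to 0.22, Dgka -0.13 to 0.035, Dgkz -0.10 to 0.0056, Cd40lg -0.81 to 0.15, Il2ra -0.28 to 0.091, Ctla4 -0.24 to 0.0050, Foxp3 -0.91 to 0.11, Slc6a6 -0.27 to 0.031, Slc5a3 -0.14 to 0.12. With the longest transcript, CPM per kb moved to 24.2 for Nr4a1, 17.2 for Egr2, 28.6 for Nfatc1, 10.6 for Nfatc2, 34.6 for Nfatc3 and 9.73 for Nfat5, by the change in length alone. The cause of the other changes was not tested. Counting error limits Nr4a2 (8 to 22 reads) and Egr3 (25 to 57 reads) most.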
